A study of Mus musculus with 2 samples.

Results

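The transcripts described here encode the nuclear subunits of the respiratory chain from succinate dehydrogenase (complex II) through the bc1 complex (complex III), cytochrome c and cytochrome c oxidase (complex IV) to ATP synthase (complex V), with a few factors that assemble them. They were chosen by gene name: Sdha to Sdhd, names that start with Uqcr, Cyc1, Cycs, Cox4 to Cox8 and Cox10 to Cox19, names that start with Atp5, and Bcs1l. The rule found 73 probes of 53 gene names among 41174 probes of 27962 gene names: 6 probes for complex II, 12 for complex III, 3 for cytochrome c, 26 for complex IV, 24 under ATP synthase names, and 2 of Cox4nb. Cox4nb (now Emc8), a neighbour of Cox4i1, and Atp5s (now Dmac2l) match by name and are no subunits of the purified enzymes. A probe named Cox7b2 was not among the members.

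The study set RNA of adipocyte-derived microvesicles (ADMs), membrane particles released into the culture medium, against RNA of the cells that released them. The cells were 3T3-L1 adipocytes, an established mouse fibroblast line, grown in high-glucose DMEM with 10% FCS and turned to fat cells by 3-isobutyl-1-methylxanthine at 0.5 mM, dexamethasone at 0.25 µM and insulin at 10 µg/ml. On day 11 after induction the medium was ultracentrifuged to collect the vesicles, and the cells were harvested that day, so both groups share line, induction and time. Each of 2 biological replicates was 1 2-colour Agilent array that carried both RNAs, with vesicle RNA in Cy5 on array 1 and in Cy3 on array 2. A single cell line is the only model. A ratio here is vesicle over cell on the log2 scale, after normalization by brightness unless another setting is named. A positive value then means a larger vesicle share than probes of like brightness had on balance, not more vesicle signal as such. The words higher and lower in vesicle RNA are used in this sense.

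As background, complex II passes electrons from succinate to ubiquinone, complex III passes them on to cytochrome c, and complex IV gives them to oxygen, while protons are pumped by complexes III and IV. ATP synthase lets protons flow back through its membrane part, Fo, and makes ATP in its F1 head. Complex II is encoded wholly in the nucleus, whereas complexes III, IV and V combine nuclear subunits with subunits made inside mitochondria. Adipocytes gain mitochondria as they differentiate, and several subunits of complex IV exist as a common form and as a form typical of heart, skeletal muscle, brown fat or testis.

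Most members stood well above background in both RNAs. On both arrays 68 of 73 member probes (93.2%) stood well above background in vesicle RNA, against 45.8% of all probes, and in the cell RNA 64 (87.7%) were, against 23.8%. No member spot was saturated. Neither RNA was well above background for Cox4i2, Cox8c and the probes drawn from single cDNA clones of Sdhc, Uqcrq and Cox5a. A further 4 probes, of Cox10, Atp5f1, Atp5s and Cox4nb, were above background only in vesicle RNA, so that a ratio can only be given as a lower bound. In the main setting the bound was 1.20-fold for the Atp5s probe and 1.28-fold for the Cox4nb probe, but neither passed the test (limma adjusted p = 0.186 and 0.106). The Atp5f1 clone probe reached 1.00-fold there, and for Cox10 no fold can be given. With a smaller offset in the background correction the Atp5s and Cox4nb probes passed (limma adjusted p = 0.0430 and 0.0216). They also passed with the scanner's processed signals (0.0179 and 0.0272), as did Cox10 (0.0246). The other Atp5s probe, above background in both RNAs, gave a ratio of 0.10 (adjusted p = 0.571). These bounds set the mean normalized vesicle signal against the higher of the probe's own cell signal and the lowest cell signal of any probe well above background, per channel after loess and Aquantile normalization.

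Vesicle RNA gave far more signal than cell RNA on both arrays, whichever dye it carried. The 99th percentile of net signal over all probes was 44878 and 16957 scanner units in vesicle RNA on arrays 1 and 2, against 645 and 2261 in cell RNA. Among members the median net signal was 35586 and 13372 in vesicle RNA and 299 and 1094 in cell RNA. The ratios therefore rest on loess, a curve that sets probes of one brightness to equal shares on balance. At the 64 members measured in both RNAs it subtracted 1.63 to 8.34 log2 units on array 1 and 1.00 to 3.93 on array 2. With median centring instead, which does not remove that curve, all 64 members lay above 0 (means 0.10 to 5.96) and the median of all tested probes was 2.04. Values after loess thus tell how members stand among probes of like signal, and not amounts of RNA. The labelling protocol gives 250 ng of total RNA for either group, so labelling started from equal input. Signals also depend on labelling yield, the amount put on the array and scanning, and the parts of these were not tested. How many vesicles or cells gave the RNA and how much RNA each held cannot be told apart.

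**Figure D1:**
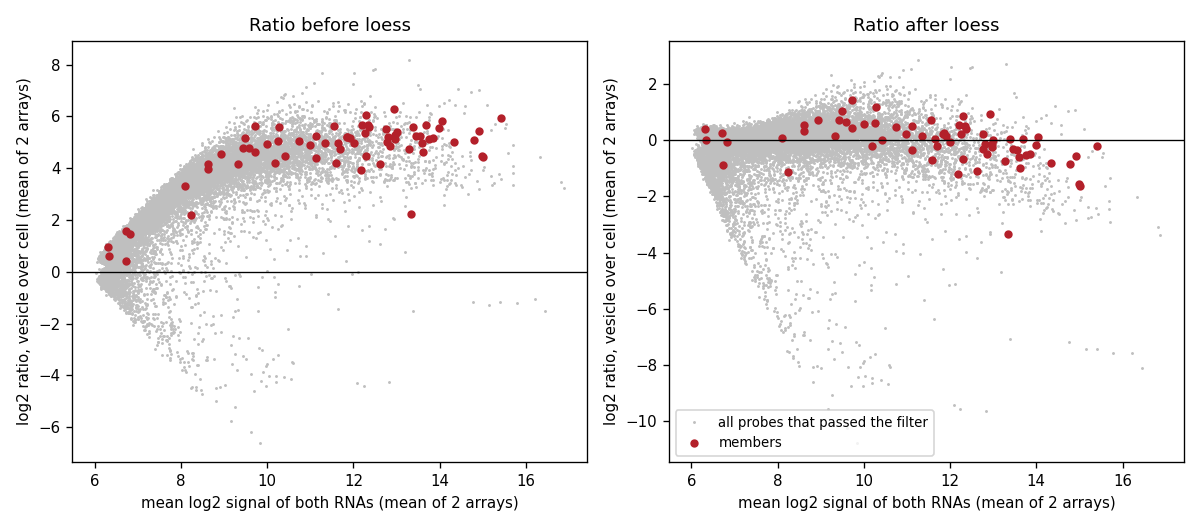
Mean log2 ratio of vesicle over cell RNA (y) against mean log2 signal (x) for 19803 probes that passed the filter (grey) and the 68 members among them (red), before (left) and after loess (right), each point a mean of 2 arrays with local backgrounds up to 100 kept. The members followed the rising band of all probes before loess and spread around 0 after it, with Atp5k the lowest member at -3.33.

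The scanner's flag for an unusual local background removed many of the brightest members. It marked 21 of 73 member spots on array 1 (28.8%) and 5 on array 2 (6.85%), against 4.94% and 3.56% of all spots, although the vesicle-channel background of the flagged member spots on array 1 was 41 to 55 scanner units beside a median of 36. With flagged spots left out, 45 of the 68 probes that passed the filter had a ratio on both arrays. All 68 had one when only spots with a background above 100 were removed, a setting added after the data were seen. The first setting is the main one and its values are given unless the wider one, called here "backgrounds up to 100 kept", is named.

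Most members did not pass the test of vesicle against cell RNA. In the main setting 6 of 45 member probes passed the test as higher in vesicle RNA and 5 as lower, by limma with Benjamini-Hochberg adjustment over all 18117 probes tested, of which 5.53% were called higher and 10.9% lower (16.4% in either direction). With backgrounds up to 100 kept, 11 of 68 were called higher and 12 lower, beside 6.94% and 12.5% of 19803 probes (19.4% in either direction), and the 11 calls of the main setting were all among these 23. The median member ratio was 0.10 (0.01 on array 1 and 0.25 on array 2), beside 0.07 for all tested probes. With median centring 40 of 45 were called higher and 0 lower, where 59.5% of all probes were called higher and 1.46% lower (60.9% in either direction). After loess the members as a whole lay near the middle of the array, and the calls went both ways. The 6 higher calls had low cell signals on array 1, net 29.5 (Cox11) to 92.0 (Cox7c) scanner units. Among the 5 lower calls that signal was 55.0 for Cox6a2 and 631 (Cox8b) to 3278 (Atp5k) for the rest. Several calls depended on the processing. Plain background subtraction kept 1 of the 6 higher calls (the upstream Sdha probe) and 2 of the 5 lower ones (Atp5k and Cox6a2), the scanner's own processed signals kept 5 and 2, a smaller normexp offset 5 and 4, and no call was left with all outlying backgrounds kept. In direction, the 6 higher calls lay above the median of all tested probes in each of 8 settings (the main one, the wider one, median centring and 5 other background treatments or scalings), while of the 5 lower calls only Atp5k and Cox6a2 stayed below it in all 8, since Atp5e, Cox17 and Cox8b lay above it with median centring.

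**Figure D2:**
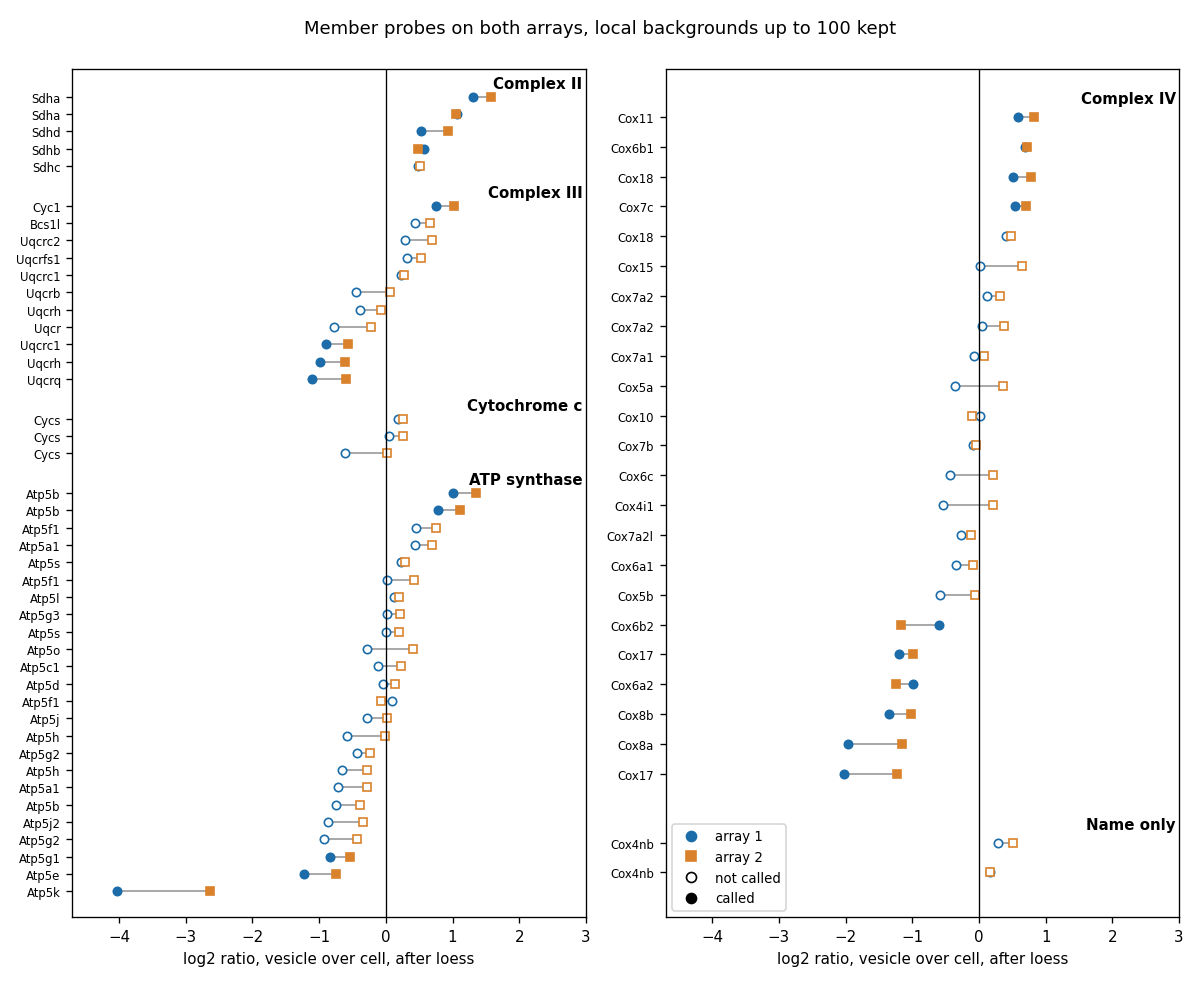
Log2 ratio of vesicle over cell RNA after loess on array 1 (circles) and array 2 (squares) for the 68 member probes, grouped by complex and ordered by mean, with local backgrounds up to 100 kept. Filled symbols passed the adjusted threshold of 0.05: Sdha, Cyc1, Cox11 and 2 of 3 Atp5b probes stand at the upper end, and Atp5k, Cox17, Cox8a and Atp5e at the lower end.

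Complex II had the highest median ratio of the complexes. Its 4 tested probes had a median of 0.77 (0.78 on each array), and all 4 were positive on both arrays. They came from 3 genes, with Sdha read by 2 of them, and the complex stood lower with 1 value per gene (given at the end). Sdha is the flavoprotein that oxidises succinate. Its upstream probe (mm7 chr13:71261221-71261280, minus strand) had net signals of 9550 and 3700.0 scanner units in vesicle RNA on arrays 1 and 2, and 35.0 and 108 in cell RNA. The ratio was 1.29 on array 1 and 1.58 on array 2, a mean of 1.43 ± 0.20 (SD, n = 2; limma adjusted p = 0.0147). The other Sdha probe (mm7 chr13:71255611-71255670) gave 1.06 and 1.05, a mean of 1.05 ± 0.01 (adjusted p = 0.0183). Both Sdha probes were thus above 0 on both arrays.

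Sdhb, the iron-sulphur subunit, gave 0.49 and 0.48 (mean 0.49 ± 0.01, limma adjusted p = 0.0585) and passed with backgrounds up to 100 kept (0.57 and 0.48, adjusted p = 0.0473), with scaling between arrays (0.0353), with a stricter filter (0.0479) and with median centring, but in none of the other settings tried. Sdhc and Sdhd are the membrane anchors that hold haem b. Sdhc gave 0.42 and 0.51 (mean 0.46 ± 0.07, adjusted p = 0.0666). Sdhd lost its array 2 spot to the background flag and gave 0.53 and 0.94 with backgrounds up to 100 kept (mean 0.73 ± 0.29, adjusted p = 0.0445). In that setting 4 of 5 probes of the complex were called higher and 0 lower, by limma, with 1 probe, of Sdhc, not called (adjusted p = 0.0515). In the main setting 2 of 4 were called higher, both of Sdha, and 0 lower. Over all probes 6.94% were called higher in the wider setting and 5.53% in the main one.

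The bases before the starts of Sdha, Sdhb and Sdhd are shown, from RefSeq on GRCm38.p6, 5′ to 3′. Of 51 member symbols, 38 had a window of 250 bases. Capitals mark matches on either strand to 5 motifs: NRF1 (GCGCATG), the ETS core (CCGGAAG), Sp1 (GGGCGG), the CCAAT box (CCAAT) and YY1 (AAGATGG).
Sdha, chr13:74350241-74350490 (minus strand): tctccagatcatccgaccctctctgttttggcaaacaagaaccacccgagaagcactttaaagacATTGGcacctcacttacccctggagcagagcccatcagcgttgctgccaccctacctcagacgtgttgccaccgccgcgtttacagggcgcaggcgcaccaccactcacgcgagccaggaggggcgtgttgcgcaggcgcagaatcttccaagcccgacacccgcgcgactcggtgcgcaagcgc
Sdhb, chr4:140961021-140961270 (plus strand): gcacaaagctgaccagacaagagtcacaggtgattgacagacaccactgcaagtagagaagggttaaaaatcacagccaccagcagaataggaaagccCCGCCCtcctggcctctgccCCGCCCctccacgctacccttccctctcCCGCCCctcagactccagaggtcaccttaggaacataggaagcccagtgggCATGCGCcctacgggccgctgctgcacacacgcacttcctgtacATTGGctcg
Sdhd, chr9:50603850-50604099 (minus strand): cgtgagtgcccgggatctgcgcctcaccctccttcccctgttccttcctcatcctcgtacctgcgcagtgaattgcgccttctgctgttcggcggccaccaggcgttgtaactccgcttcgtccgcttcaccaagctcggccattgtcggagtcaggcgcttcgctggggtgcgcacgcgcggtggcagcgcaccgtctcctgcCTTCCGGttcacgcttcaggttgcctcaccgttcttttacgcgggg
The Sdha window held 1 match, to the CCAAT box, that of Sdhb 1 to NRF1, 3 to Sp1 and 1 to the CCAAT box, and that of Sdhd 1 to the ETS core, so no motif was found in all 3. NRF1 and the ETS factor GABP are known as activators of nuclear genes for mitochondrial proteins. Over the members, 7 of 38 genes (18.4%) held the NRF1 letters and 11 (28.9%) the ETS core, against 3.68% and 7.83% of 27018 genes in the table. Sp1 was found in 34.2% of the members and 35.4% of all genes, the CCAAT box in 47.4% and 37.5%, and YY1 in 2.63% and 5.19%. These are matches of letters and were not tested as sites.

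In complex III 0 of 7 probes were called in the main setting and 4 of 11 (36.4%) with backgrounds up to 100 kept, beside 16.4% and 19.4% of all probes. In the wider setting the core subunits had a median of 0.42 and the small ones of -0.51, a difference that was not tested. Net vesicle signals on array 1 were 35586 to 69750 at the core probes above 0 and 82105 at the core probe below it. At the small subunits' probes they ran from 27771 (Uqcrb) to 247690 (Uqcrq). The part of signal in the difference was not tested. By limma 3 of the 7 main probes had an unadjusted p under 0.05, and the median over all 7 was 0.19. With backgrounds up to 100 kept the median over 11 probes was -0.19, with 1 called higher and 3 lower. Cyc1, cytochrome c1, which hands electrons to cytochrome c, had the highest value there, 0.74 and 1.03 (mean 0.89 ± 0.20, adjusted p = 0.0240). Its array 1 spot was flagged, so it has no main value. The main setting's highest probe was that of Bcs1l, the factor that inserts the Rieske protein, at 0.44 and 0.66 (mean 0.55 ± 0.16, adjusted p = 0.0578).

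The Rieske iron-sulphur protein Uqcrfs1 gave 0.16 and 0.53 (mean 0.35 ± 0.26, limma adjusted p = 0.177). Uqcrc2, a core protein like Uqcrc1, gave 0.15 and 0.70 (mean 0.42 ± 0.39, adjusted p = 0.182). Core protein 1 was read by a pair of probes. The upstream Uqcrc1 probe gave 0.11 and 0.27 (mean 0.19 ± 0.12, adjusted p = 0.313), while the downstream one, flagged on array 1, gave -0.89 and -0.57 with backgrounds up to 100 kept (mean -0.73 ± 0.23, adjusted p = 0.0374). The probes of this 1 gene lay on opposite sides of 0 on both arrays.

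Uqcrh, Uqcrq, Uqcrb and Uqcr (now Uqcr11) are small subunits. All 5 of their probes had negative means with backgrounds up to 100 kept (median -0.51), and 2 were called lower. Uqcrq, the lowest probe of the complex in the main setting, gave -1.38 and -0.60 (mean -0.99 ± 0.55, limma adjusted p = 0.0617), and -1.11 and -0.60 with backgrounds up to 100 kept (adjusted p = 0.0411). The downstream Uqcrh probe gave -1.23 and -0.60 (mean -0.92 ± 0.44, adjusted p = 0.0532), and -0.99 and -0.61 in the wider setting (adjusted p = 0.0355). The negative sign of the small subunits depended on the background correction as well as on loess: Uqcrh and Uqcrq were at -0.07 and -0.02 with a normexp offset of 10, at 0.22 and 0.31 with plain subtraction, at 0.56 and 0.70 with the scanner's processed signals, and at 4.69 and 4.78 with median centring.

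Cytochrome c, the soluble carrier between complexes III and IV, was not called at any of its 3 probes. In the main setting 0 of 2 Cycs probes passed in limma (0 had an unadjusted p under 0.05). One gave 0.10 and 0.26 (mean 0.18 ± 0.11, adjusted p = 0.334) and the other -0.04 and 0.25 (mean 0.10 ± 0.21, adjusted p = 0.592). The upstream probe, flagged on array 1, gave -0.62 and 0.01 with backgrounds up to 100 kept (mean -0.30 ± 0.45, adjusted p = 0.315). The Cycs ratios straddled 0, with a spread between arrays of the size of the means.

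Complex IV was split. Of 14 probes tested, 3 were called higher and 3 lower, and the median was -0.03 (-0.11 on array 1 and 0.22 on array 2). With backgrounds up to 100 kept, 4 of 23 were called higher and 6 lower. In either direction these calls were 42.9% and 43.5% of the probes in the 2 settings, beside 16.4% and 19.4% of all probes. The isoforms held several of these calls, and they are taken set by set.

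Cox4i1, the common form of subunit 4, gave -0.54 and 0.21 with backgrounds up to 100 kept (mean -0.17 ± 0.53, limma adjusted p = 0.595), so the arrays differed in sign. Its lung form Cox4i2 was not well above background in either RNA. Cox5a, a subunit with no isoform here, gave -0.54 and 0.36 (mean -0.09 ± 0.64, adjusted p = 0.820). Cox6a1, the common form of subunit 6a, was flagged on both arrays and gave -0.34 and -0.09 in the wider setting (mean -0.21 ± 0.18, adjusted p = 0.289). Cox6a2, the heart and skeletal muscle form, gave -0.99 and -1.25 (mean -1.12 ± 0.19, limma adjusted p = 0.0214), below 0 on both arrays. Its net signals were 944 and 354 in vesicle RNA and 55.0 and 129 in cell RNA.

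Subunit 6b showed opposite signs for its forms. Cox6b1, the common form, gave 0.69 and 0.73 (mean 0.71 ± 0.03, limma adjusted p = 0.0318). Cox6b2, the testis form, gave -0.61 and -1.19 (mean -0.90 ± 0.41, adjusted p = 0.05003, just over the threshold), and passed with backgrounds up to 100 kept at -0.60 and -1.17 (adjusted p = 0.0431). The Cox6b2 net signals were 95.6 and 42.7 in vesicle RNA and 23.8 and 52.1 in cell RNA, so on array 2 the cell RNA was the brighter of the pair. The difference between the forms itself was not tested.

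For subunit 7a, no form was called. Cox7a1, the heart and muscle form, gave -0.12 and 0.08 (mean -0.02 ± 0.14, limma adjusted p = 0.915). Cox7a2, the common form, gave -0.09 and 0.37 at its probe with a main value (mean 0.14 ± 0.33, adjusted p = 0.564). Cox7a2l, a relative known from supercomplexes of complexes III and IV, gave -0.30 and -0.13 (mean -0.22 ± 0.12, adjusted p = 0.264). Cox7b gave -0.09 and -0.04 with backgrounds up to 100 kept (mean -0.06 ± 0.03, adjusted p = 0.689). Cox7c, a small subunit with no isoform here, was called higher at 0.49 and 0.71 (mean 0.60 ± 0.15, adjusted p = 0.0499). That call was lost with a normexp offset of 10 (adjusted p = 0.0632), plain subtraction (0.127), the scanner's signals (0.0788), all outlying backgrounds kept (0.547), the robust option (0.0523) and 1 probe per gene (0.0524).

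Both detected forms of subunit 8 had ratios below 0 after loess. Cox8b, the heart, muscle and brown fat form, gave -1.49 and -1.02 (mean -1.26 ± 0.33, limma adjusted p = 0.0248), the lowest main value of the complex. Cox8a, the common form, was flagged on array 1 and gave -1.96 and -1.15 with backgrounds up to 100 kept (mean -1.55 ± 0.57, adjusted p = 0.0242). Cox8c, the testis form, was not well above background in either RNA. The window before Cox8b is shown as well, and it held no match to the 5 motifs.
Cox8b, chr7:140900447-140900696 (minus strand): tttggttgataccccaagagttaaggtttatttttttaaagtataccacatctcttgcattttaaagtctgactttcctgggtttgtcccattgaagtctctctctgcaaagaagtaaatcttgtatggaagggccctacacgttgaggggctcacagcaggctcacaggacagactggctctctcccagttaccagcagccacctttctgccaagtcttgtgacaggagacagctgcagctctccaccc

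Markers of other cell types were read beside these forms. Of 12 adipocyte markers, 12 passed the background flag on both arrays in vesicle RNA and 11 in cell RNA (Lep was the exception). Of their 12 tested probes 2 were called higher and 4 lower, beside 5.53% and 10.9% of all probes. With backgrounds up to 100 kept, 7 of 18 were called higher and 3 lower (median 0.43), beside 6.94% and 12.5%. In that setting the Lpl probes had means of 1.24 and -2.62, and the Retn probes of 0.80 and -1.07. The balance of adipocyte marker calls thus differed between the settings. All 8 preadipocyte and fibroblast markers were above background in vesicle RNA and 5 in cell RNA (summed 242466 and 92505 against 846 and 3022), with 6 of 14 probes called higher and 0 lower. Among those, a Col1a1 probe had a mean ratio of 2.14 (limma adjusted p = 0.0159) and Pdgfrb 1.59 (adjusted p = 0.0142). Of 7 muscle markers, Acta1, Actc1 and Mb were so in vesicle RNA and none in cell RNA, with summed net signals of 880 and 356 against 85.4 and 107, and Ckm, Myh4, Myh6 and Tnnt2 were above background on both arrays in neither. Of 6 brown adipocyte markers only Cidea and Ppargc1a were above background in either RNA (summed 5960 and 2276 in vesicle RNA, 151 and 352 in cell RNA), and Ucp1 was not. Cidea was called lower at a mean of -0.71 (limma adjusted p = 0.0350). Of 4 testis markers, Prm1 and Tnp1 were above background in vesicle RNA and Prm2 in cell RNA, with sums of 246 and 124 against 95.6 and 208. Macrophage markers were detected for 2 of 6 genes in vesicle RNA and 1 in cell RNA (summed 4417 and 1755 against 281 and 532), and the Lyz2 probes differed, 1 being called lower at -3.30 (limma adjusted p = 0.0103) and the other at -0.04. Their part in the isoform ratios was not tested.

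The factors that build complex IV were split too. Cox11 and Cox17 handle copper. Cox11 gave 0.59 and 0.84 (mean 0.72 ± 0.17, limma adjusted p = 0.0393), the highest main value of the complex. Cox17 gave -1.35 and -0.99 (mean -1.17 ± 0.26, adjusted p = 0.0230). The other Cox17 probe, from an expressed sequence tag, was flagged on array 1 and gave -2.03 and -1.23 with backgrounds up to 100 kept (mean -1.63 ± 0.57, adjusted p = 0.0222). Cox18, which inserts a mitochondrially made subunit into the membrane, had overlapping probes of which 1 of 2 was called in the wider setting (0.50 and 0.78, adjusted p = 0.0429). Cox10 and Cox15, enzymes of haem A synthesis, were not called. The copper factors thus lay at both ends of the complex.

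ATP synthase held both the most extreme ratio of all members and some of the highest. Of 16 probes tested 1 was called higher and 2 lower, with a median of -0.00 (-0.15 and 0.20 on the arrays). With backgrounds up to 100 kept, 2 of 24 were called higher and 3 lower. In either direction these calls were 18.75% and 20.8% of the probes in the 2 settings, near the 16.4% and 19.4% of all probes. Atp5k, subunit e of Fo, gave -4.24 and -2.64 (mean -3.44 ± 1.13, limma adjusted p = 0.0231). Its net signals were 38805 and 12979 in vesicle RNA and 3278 and 6873 in cell RNA. Relative to the median of all tested probes Atp5k lay at -3.60 to -2.83 in the settings other than median centring and at -0.14 with it.

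Atp5b, the catalytic beta subunit of F1, was read by 3 probes. The most upstream (mm7 chr10:127585810-127586488) gave 0.97 and 1.36 (mean 1.16 ± 0.27, limma adjusted p = 0.0241), the highest main value of the complex. The middle one (mm7 chr10:127586901-127586960) gave 0.78 and 1.11 with backgrounds up to 100 kept (mean 0.94 ± 0.23, adjusted p = 0.0236). The most downstream (mm7 chr10:127591587-127591646) gave -0.75 and -0.39 in that setting (mean -0.57 ± 0.25, adjusted p = 0.0633). In that setting 2 of 3 Atp5b probes were called higher, and the remaining one lay below 0 on both arrays.

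Of the other F1 subunits, Atp5e, the small epsilon subunit, was called lower in the main setting at -1.45 and -0.74 (mean -1.10 ± 0.50, limma adjusted p = 0.0453). The call was lost with a normexp offset of 10 (-0.44, adjusted p = 0.120), plain subtraction (-0.20, 0.467), all outlying backgrounds kept (-1.43, 0.137), the trend option (0.205) and the robust option (0.0528), and the ratio was 0.06 with the scanner's signals (0.831) and 4.28 with median centring. Atp5a1, the alpha subunit, had probes on opposite sides of 0: 1 gave 0.29 and 0.69 (mean 0.49 ± 0.29, adjusted p = 0.106), and the upstream 1, flagged on array 1, gave -0.72 and -0.28 in the wider setting (mean -0.50 ± 0.31, adjusted p = 0.101). Atp5c1 (gamma) and Atp5d (delta) had means of -0.06 and -0.01 and were not called. The windows before Atp5k and Atp5e, the lower calls of this complex, are shown with the same motifs in capitals.
Atp5k, chr5:108434400-108434649 (minus strand): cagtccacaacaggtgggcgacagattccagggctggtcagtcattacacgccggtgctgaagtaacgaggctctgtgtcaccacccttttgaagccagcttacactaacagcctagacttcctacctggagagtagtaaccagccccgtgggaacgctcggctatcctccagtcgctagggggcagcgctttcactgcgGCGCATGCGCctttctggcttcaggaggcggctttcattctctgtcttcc
Atp5e, chr2:174464102-174464351 (minus strand): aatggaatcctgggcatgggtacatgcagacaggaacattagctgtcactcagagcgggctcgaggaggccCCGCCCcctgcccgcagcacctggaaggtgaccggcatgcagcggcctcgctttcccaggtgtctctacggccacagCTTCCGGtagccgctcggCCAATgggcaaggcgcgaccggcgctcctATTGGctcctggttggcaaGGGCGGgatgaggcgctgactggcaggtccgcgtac
The Atp5k window held overlapping matches to the NRF1 letters, 1 on each strand, and that of Atp5e 1 match to the ETS core, 2 to Sp1 and 2 to the CCAAT box. The 7 members with the NRF1 letters were Atp5g2, Atp5k, Atp5l, Cox5b, Cox6a1, Cycs and Sdhb, and a relation of the letters to the ratios was not tested.

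The c ring of Fo, which turns as protons pass, is encoded by Atp5g1, Atp5g2 and Atp5g3, whose mature proteins are known to be the same. In the main setting 0 of 3 c ring probes were called by limma (2 had an unadjusted p under 0.05). Atp5g1 was flagged on array 2 and was lower at -0.83 and -0.54 with backgrounds up to 100 kept (mean -0.68 ± 0.21, adjusted p = 0.0395). Atp5g2 gave -1.08 and -0.43 at one probe (mean -0.75 ± 0.46, adjusted p = 0.0786) and -0.52 and -0.24 at the other (mean -0.38 ± 0.19, adjusted p = 0.126). Atp5g3 gave -0.21 and 0.21 (mean -0.00 ± 0.30, adjusted p = 0.994). Atp5g3 therefore had the highest and Atp5g1 and Atp5g2 the lower ratios of the set, and the differences between them were not tested. The remaining Fo and stalk subunits, Atp5f1 (b), Atp5h (d), Atp5j (F6), Atp5j2 (f), Atp5l (g) and Atp5o (OSCP), had means from -0.60 to 0.60 with backgrounds up to 100 kept, and none was called.

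Probes of 1 gene did not always give the same ratio. Of 14 genes with more than 1 probe that passed the filter, Atp5b and Atp5a1 had probes over 1 log2 unit apart, by 1.75 and 1.06 with backgrounds up to 100 kept. Among 11 genes with separate probes, the upstream probe (by the mm7 coordinates and strand) was higher on both arrays in 8 and lower on both in 3. With median centring these counts were 4 and 5, and in 2 the arrays differed, so the pattern depends on the normalization. In all of these genes but Sdha, the probe with more net vesicle signal had the lower mean ratio after loess. For Atp5b these signals on array 1 were 12637 at the upstream probe and 300576 at the downstream probe. The parts of position and of signal in the pattern were not tested. Probes that overlap, of Atp5h, Cox18 and Cox7a2, differed by 0.17, 0.20 and 0.00 in the mean. Which part of each transcript a probe reads was not analysed here.

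**Figure D3:**
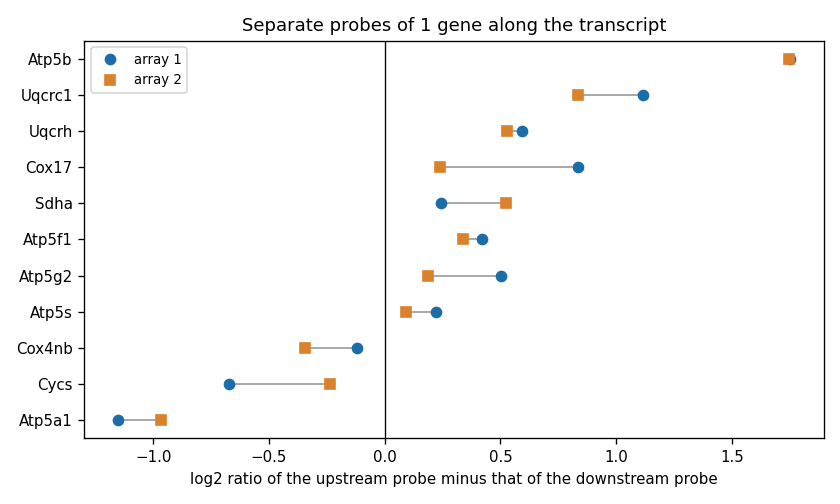
Log2 ratio of the most upstream probe minus that of the most downstream probe for 11 member genes with separate probes, on array 1 (circles) and array 2 (squares), after loess with backgrounds up to 100 kept. Atp5b stands at 1.75 and 1.74, Atp5a1 at -1.15 and -0.97, and the arrays fall on the same side of 0 in all 11 genes.

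The arrays ordered the members alike but were offset. Across the 68 member probes the ratios of the arrays correlated with r = 0.94 (Pearson) and rho = 0.93 (Spearman), beside 0.93 and 0.81 over all 19803 probes. The points share both arrays and the loess curves. Array 2 was above array 1 in 38 of 45 members (84.4%), against 52.3% of all probes tested. Brighter members had lower ratios after loess (r = -0.40, rho = -0.51 over 68 probes), beside -0.05 and 0.10 over all probes, and this description carries no test. Cell RNA was dimmer on array 1 and loess subtracted more there (a median of 6.86 at members, against 3.40 on array 2), and its part in the offset was not tested.

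Genes that work beside the members were read from lists, against 16.4% of all probes called in either direction. Of 29 probes of assembly factors outside the name rule 1 was called higher and 1 lower (6.90% in all, median 0.16): Surf1, a complex IV assembly factor, at 0.60 and 0.68 (mean 0.64, limma adjusted p = 0.0388), and Uqcc2, a complex III assembly factor, at -0.85 and -0.76 (mean -0.81, adjusted p = 0.0274). Among 24 probes of regulators of mitochondrial genes 3 were called higher (12.5%, against 5.53% of all probes) and 1 lower (16.7% in all, median 0.04). Ppargc1b, a coactivator of mitochondrial genes, was higher at 2 of its probes (means 0.88 and 0.68). One probe of Tfam, the packaging factor of mitochondrial DNA, was lower at -2.32 and -1.70 (limma adjusted p = 0.0158). The other Tfam probes were positive on both arrays, with means of 0.29 and 0.33, and were not called (limma adjusted p = 0.208 and 0.151). Of 8 probes of carriers, porins and proton leak proteins 0 were called by limma (1 had an unadjusted p under 0.05), and with backgrounds up to 100 kept 1 of 14 was, the adenine nucleotide carrier Slc25a5 at a mean of 0.71 (adjusted p = 0.0264).

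Complex I (Nduf names) had a median of 0.25 with 6 of 36 probes called higher and 1 lower, and the mitochondrial ribosome 0.22 with 9 of 99 called higher and 2 lower. The cytosolic ribosome had a median of -1.22, with 67 of 94 probes called lower and 0 higher by limma (78 had an unadjusted p under 0.05). Over all probes 5.53% were called higher and 10.9% lower. With median centring 86 of the 94 were called higher and 0 lower, where 59.5% of all probes were called higher. Their median then lay 1.42 above that of all probes, so the low standing of this group depended on the normalization. In the main setting the member median of 0.10 lay between those of the cytosolic ribosome and complex I, and these differences were not tested.

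**Figure D4:**
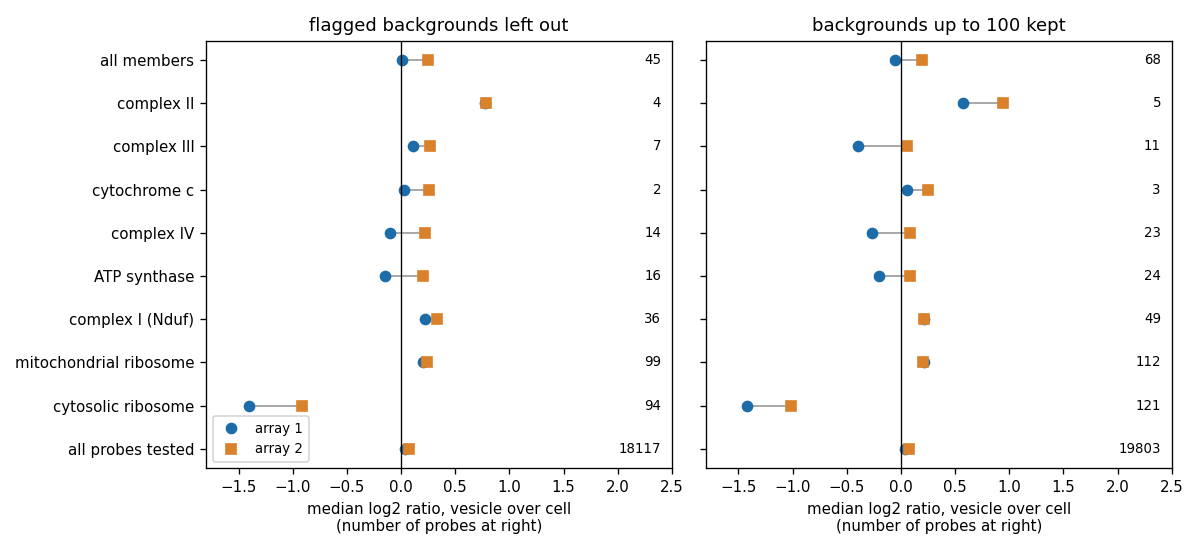
Median log2 ratio of vesicle over cell RNA on array 1 (circles) and array 2 (squares) for each complex, like groups and all probes tested, with flagged backgrounds left out (left) and with backgrounds up to 100 kept (right), and the number of probes at the right edge. Complex II stands highest at 0.77 over 4 probes on the left, and the median of complex III turns from 0.19 to -0.19 when the flagged spots are kept.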

How the data were processed

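The arrays, of 2 colours, were read with Feature Extraction 10.5.1.1, with probe annotation on mouse build mm7, per the file headers. The authors deposited mean spot and median local background intensity per channel, not normalized, and a log10 ratio that Feature Extraction had background-subtracted and dye-normalized, as the file headers record. The deposited series table matches it on array 1 and has the opposite sign on array 2, with column medians of 0. By the dyes the series table is thus vesicle over cell on both arrays, and it served no further use. Spot flags for background, outliers and saturation were used as deposited.

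Control spots and outlier-flagged spots, local backgrounds included, were left out. After normexp background correction (offset 50) and loess within each array, the sign of array 2 was turned for the dye swap. A probe was tested where it was well above background in one RNA on both arrays (at least 50% of its spots). The mean log2 ratio, computed from the deposited intensities, was set against 0 by lmFit and eBayes (limma 3.58.1, R 4.3.3), and p-values were adjusted over all probes tested by Benjamini-Hochberg, with a threshold of 0.05. This leaves 1 residual degree of freedom per probe and 2.91 prior ones. The offset pulls ratios near background towards 0. The script was tested on simulated data in which both RNAs had the same base signal, apart from set changes, noise and a constant dye effect. That simulation did not cover the large signal difference between the RNAs seen here. A ± value is the SD of 2 arrays, whose number limits the precision.

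Members and gene lists were chosen with earlier results of these data known. Values on both arrays are given for the highest and lowest probe of each complex, isoform sets, genes whose probes differ by over 1, and core subunits; of the lists outside the rule, at most the 2 highest and 2 lowest called ratios. Of 73 member probes 67 were matched to RefSeq (GRCm38.p6) by accession, which changed 4 names. Both arrays lay on the same slide and scan, so slide and scan do not split them. Whether an earlier step did cannot be told from the labels. The labels call the replicates biological; separate cultures or extractions are not stated, so p-values measure only the spread between these samples, which may be technical.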

Additional observations from a re-analysis of the deposited data

How the results depend on the processing

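No paired analysis was possible because none remains to be added: the main test sets within-array ratios, which pair both RNAs of a replicate, against 0. With 2 arrays no permutation test can pass 0.05. Leaving out a replicate gives a value with no test: the median minus that of all tested probes ranged over 0.71 to 0.74 for complex II and -0.15 to 0.15 for complex IV.

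Median centring changed most: 40 members were called higher and 0 lower, over all probes 11038 (10773 higher, 265 lower), and its prior degrees of freedom were infinite, so its p-values do not reflect a probe's own spread. Members then stood 2.53 above the median of all probes, complex II 2.84, III 2.73, IV 1.97, V 2.58 and cytochrome c 2.56. Ratios that turned positive there were those of Uqcrb (4.43), Uqcrh (4.69), Uqcrq (4.78), Cox10 (1.14), Cox17 (3.84), Cox5a (5.06), Cox6a2 (1.86), Cox6b2 (0.11), Cox7a1 (4.16), Cox7a2l (3.87), Cox8b (3.61), Atp5c1 (5.33), Atp5d (4.64), Atp5e (4.28), Atp5g2 (4.14 and 4.07), Atp5g3 (5.51), Atp5j (4.88) and Atp5k (1.90). With the scanner's processed signals, whose median over all probes was 0.69, 13 members were called higher and 3 lower, over all probes 8372 (5798 higher). Relative to all, complex II stood at 0.41, III at 0.0061 and cytochrome c at -0.35, and Uqcrb (0.051), Uqcrh (0.56), Uqcrq (0.70), Cox10 (2.20), Cox5a (0.70), Atp5c1 (1.11), Atp5d (0.30), Atp5e (0.062), Atp5g3 (1.36) and Atp5j (0.51) turned positive. A normexp offset of 10 called 11 members higher and 4930 probes (1867 higher, 3063 lower), turned Cox5a (0.42), Atp5c1 (0.62), Atp5d (0.17), Atp5g3 (0.78) and Atp5j (0.25) positive, and put members at 0.24, complex II at 0.79, III at 0.31 and V at 0.19. Plain subtraction called 2 members higher, 3 lower and 480 probes higher, with members at 0.22, complex II at 0.76, III at 0.31 and V at 0.23, and turned Uqcrb (0.012), Uqcrh (0.22), Uqcrq (0.31), Cox10 (0.11), Cox5a (0.60), Atp5c1 (0.87), Atp5d (0.25), Atp5g3 (1.05) and Atp5j (0.42) positive. The median of all probes was 0.11 with that offset and 0.21 with plain subtraction.

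With all outlying backgrounds kept, limma called 0 probes in all, 0 higher and 0 lower (677 at an unadjusted p under 0.05, 27 of them members), with complex II at 0.41 and cytochrome c at 0.24, and with Uqcrb (0.044), Cox7a1 (0.22), Cox7a2l (0.13), Atp5d (0.15), Atp5f1 (-0.0053) and an Atp5g2 probe (0.020) turned in sign. Array 1 then held 12 spots with a background above 100, and the cause was not tested. Keeping backgrounds up to 100 called 11 members higher and 12 lower, with complex II at 0.67 and III at -0.26, and turned Cox5a (0.0023), Cox7a1 (0.0043), Atp5c1 (0.049), Atp5d (0.048) and Atp5g3 (0.11) positive. Scaling between arrays called 11 members higher and 4676 probes, 1783 higher. The trend option called 1711 probes higher. The stricter filter put complex II at 0.83 and III at 0.25, no filter put complex II at 0.49, the brightest probe per gene put it at 0.45, and the median per gene put it at 0.44 with 651 calls higher. Asking that all spots of a probe be above background left the members' counts of such probes the same. Cell RNA near background on array 1 limits what can be said of dim members and of the higher calls.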
